A study of Mus musculus with 2 samples.

Results

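Of the 37310 genes in the GENCODE vM1 annotation of mm9, 9 were taken by symbol as the isoenzymes of glycolysis described here, namely Hk1, Hk2, Aldoa, Eno1, Eno2, Pgam1, Pkm, Ldha and Ldhb. The annotation lists Pkm under its older symbol Pkm2, although the gene encodes both the M1 and the M2 form. All 9 were found, and each held at least 100 reads in each library. The data were 2 RNA-Seq libraries, 1 from a BxC and 1 from a CxB F1 embryo. BxC had a C57BL/6J mother and a CAST/EiJ father (spelled CastEi/J in the labels), and CxB was the reciprocal. Both were untreated whole brains at E17.5 (days of embryonic development), each from 1 embryo without pooling. The methods give the CxB brain as male and do not say which of the BxC brains, of either sex, is behind the deposited library. The libraries held 128944754 (BxC) and 109719746 (CxB) placed reads of 36 bases from polyA+ RNA, of which 6.47% and 6.20% were spliced. Since each cross is 1 library, nothing could be tested between the crosses, and every interval below is an exact 95% interval for counting error only. Reads are not independent molecules, since identical reads were counted as often as they were sequenced.

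Glycolysis turns glucose into pyruvate, and most of its steps are carried out by isoenzymes, related enzymes from separate genes that are used to different degrees in different tissues. Hexokinase traps glucose in the cell, and HK1 is the form typical of brain. Aldolase splits fructose bisphosphate, phosphoglycerate mutase and enolase act on the phosphoglycerates that follow, and enolase 2 is the form of mature neurons. Pyruvate kinase makes pyruvate, and lactate dehydrogenase, a tetramer of LDHA and LDHB subunits, converts pyruvate to lactate and back. Pkm is a textbook case of mutually exclusive splicing. Its transcripts hold either the M1 exon, typical of muscle and adult brain, or the M2 exon, typical of embryonic and proliferating cells. Genes of this pathway are also known for processed pseudogenes, intronless copies of their mRNA elsewhere in the genome, and a short read that fits a copy as well as the gene has no single place.

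Both exons of the Pkm pair lie within its coding sequence on the plus strand of chromosome 9 (mm9, gene at 59504383 to 59527182). They are shown in full because their differences are what lets a read name its exon. M1 spans chr9:59522836-59523002 and M2 spans chr9:59523375-59523541. Each has 167 bases, and capitals mark the 64 positions at which they differ, which leaves 61.7% identity.
Pkm M1 exon: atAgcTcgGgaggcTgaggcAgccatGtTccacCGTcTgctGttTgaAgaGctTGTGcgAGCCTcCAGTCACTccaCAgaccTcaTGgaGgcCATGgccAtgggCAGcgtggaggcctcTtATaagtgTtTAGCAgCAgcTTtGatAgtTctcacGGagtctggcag
Pkm M2 exon: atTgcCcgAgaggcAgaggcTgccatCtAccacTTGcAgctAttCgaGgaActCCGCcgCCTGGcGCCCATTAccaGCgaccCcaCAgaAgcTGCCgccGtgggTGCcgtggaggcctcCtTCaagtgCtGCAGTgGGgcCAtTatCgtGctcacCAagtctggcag
The junctions show the same on the scale of a read. Each window below holds 18 bases on either side of a junction, from the exon before the pair (ending at 59519880) or to the exon after it (starting at 59525851), with capitals at the bases that differ between M1 and M2. A read centred on the upstream junction tells the exons apart by 4 bases, and one centred on the downstream junction by 3.
upstream M1 junction: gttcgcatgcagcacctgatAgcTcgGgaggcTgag
upstream M2 junction: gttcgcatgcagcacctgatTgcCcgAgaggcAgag
downstream M1 junction: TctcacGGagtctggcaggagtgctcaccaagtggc
downstream M2 junction: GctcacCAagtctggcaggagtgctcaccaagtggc
The windows of both M1 junctions had no copy in the genome within 2 mismatches. The upstream M2 window had no exact copy and 2 copies with 1 mismatch, both on chromosome 2. The downstream M2 window had 1 exact copy, at chr5:22230664-22230699 on the minus strand, inside the annotated lincRNA 1700030G06Rik.

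Levels were compared between genes as RPKM, the reads over all annotated exons on either strand, divided by the exon length in kilobases and by the placed reads in units of 1000000. Hexokinase was almost entirely Hk1. Its RPKM was 30.2 (29.9 to 30.6) in BxC and 29.8 (29.4 to 30.1) in CxB, while Hk2, the form of muscle and adipose tissue, stood at 0.754 (0.693 to 0.817) and 0.774 (0.708 to 0.845). The Hk1 share of the sum of both was 97.6% (97.4 to 97.8) in BxC and 97.5% (97.2 to 97.7) in CxB. In reads, Hk1 had 33262 and 27889, and Hk2 had 580 and 507. No 36-base sequence inside a coding exon of either gene has an exact copy in the genome, although 308 and 346 of the 3190 coding bases of Hk1 and 646 and 677 of the 2754 of Hk2 had no read.

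Aldoa, the aldolase of muscle and of most other tissues, and Pkm had the highest RPKM of the 9 genes. Aldoa stood at 74.8 (73.9 to 75.7) in BxC and 65.5 (64.5 to 66.4) in CxB, and Pkm at 70.5 (69.6 to 71.5) and 67.1 (66.1 to 68.1). Aldoa was thus above Pkm in BxC and below it in CxB. Among 22380 protein-coding genes ordered by RPKM, Aldoa ranked 369 in BxC and 436 in CxB, and Pkm 396 and 416. Pgam1, the phosphoglycerate mutase of brain, followed at 53.8 (52.9 to 54.8) and 48.5 (47.6 to 49.5), and ranked 585 and 678. Only 15.4% and 16.1% of its reads lay on the strand opposite to the gene, which the described library protocol gives. In the other members this was 35.9% (Ldha, BxC) to 59.9% (Eno2, BxC). Over coding exons only, the order of the members was different. Pgam1 was then highest at 124 in BxC and 111 in CxB, followed by Aldoa at 119 and 104. Ldha at 62.4 and 60.7 was then above Pkm at 59.8 and 58.6.

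The remaining members followed in the same order in both libraries. Ldha had an RPKM of 34.4 (33.8 to 35.0) in BxC and 33.0 (32.4 to 33.7) in CxB, and Ldhb 29.7 (29.0 to 30.5) and 27.9 (27.2 to 28.7). Hk1 lay between them, and the intervals of Hk1 and Ldhb overlapped in BxC but not in CxB. Eno2 had 20.1 (19.8 to 20.5) and 18.7 (18.4 to 19.1), and Eno1, the enolase of most tissues, 5.96 (5.78 to 6.15) and 5.77 (5.58 to 5.97). On this scale Eno2 made up 77.1% (76.5 to 77.8) of Eno1 and Eno2 in BxC and 76.4% (75.7 to 77.1) in CxB. Reads across annotated junctions, given below, had the opposite order. Ldhb made up 46.4% (45.6 to 47.1) and 45.8% (45.0 to 46.7) of Ldha and Ldhb.

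**Figure D1:**
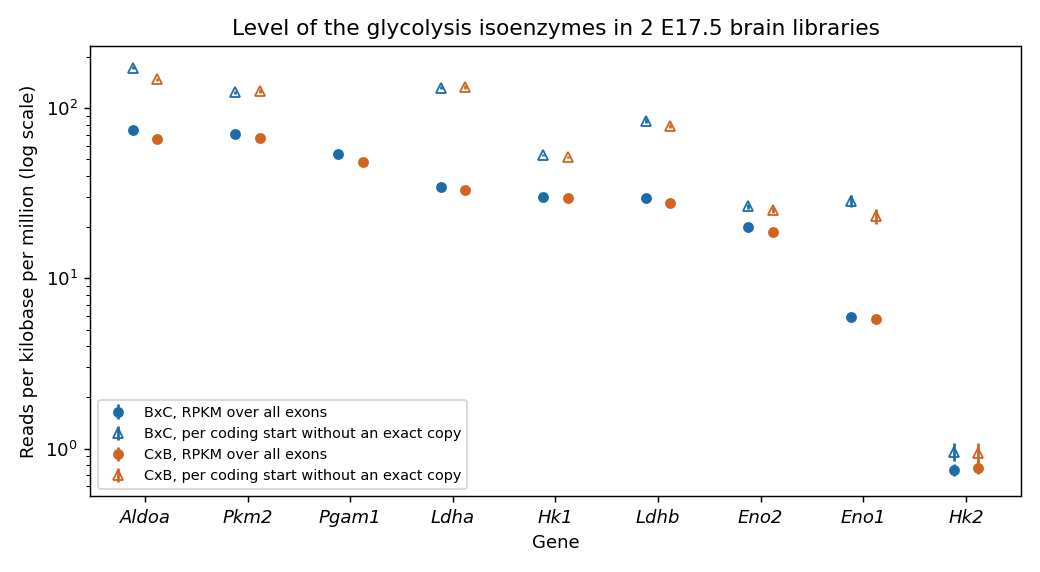
Level of each member (log axis, in the units of RPKM) in the BxC and CxB libraries, with exact 95% counting intervals. Filled circles are RPKM over all exons and open triangles are the level over coding starts without an exact copy, a scale on which Pgam1 has no value and Eno1 rises from 5.96 to 28.6 in BxC, next to Eno2 at 26.5.

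How much of each gene a unique read could reach differed widely. Every 36-base sequence of the members, inside exons and across annotated junctions, was searched in the mm9 genome on both strands with up to 2 mismatches, and a start is the first position of such a sequence. All 625 coding starts of Pgam1 had an exact copy elsewhere. The share was 84.3% of the 980 coding starts of Eno1, 58.3% of 1378 in Pkm, 47.4% of 760 in Ldhb, 46.6% of 862 in Ldha and 35.8% of 956 in Aldoa. It was 0 in Hk1, Hk2 and Eno2. The 9 genes thus fell into 3 with no exact copy and 6 with exact copies over 35.8% or more of their coding starts.

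**Figure D2:**
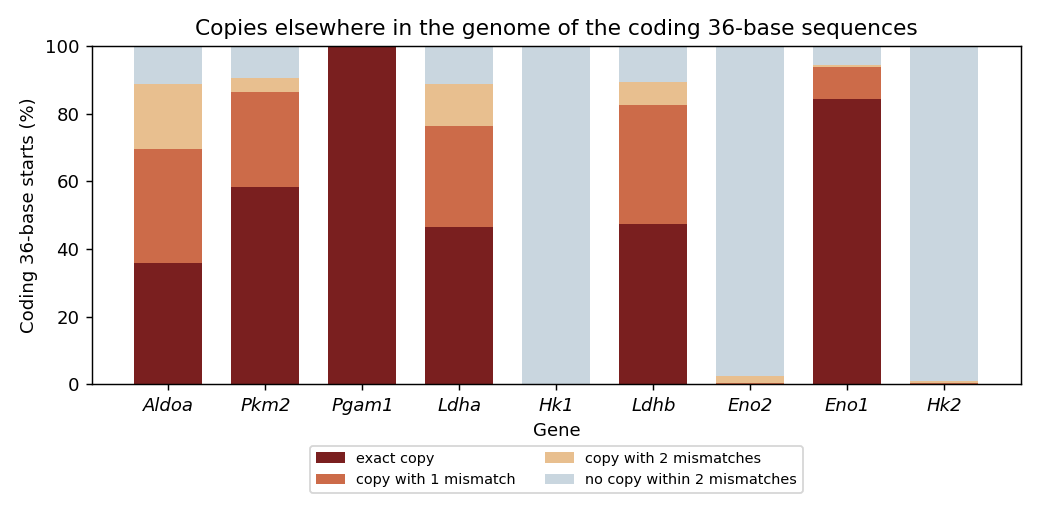
Coding 36-base starts of each member in percent, split by the closest copy elsewhere in mm9. Pgam1 is filled by exact copies (100%), Eno1 is next with 84.3%, and Hk1, Hk2 and Eno2 have no exact copy.

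Coding exon starts with an exact copy held few reads, but the other classes had no common order. In BxC, Aldoa held 0.237 reads per coding start with an exact copy and 34.5 per start whose closest copy had 1 mismatch, and in CxB it held 0.225 and 24.9. Eno1 held 0 reads at its 826 coding starts with an exact copy in either library. Pkm held 0.918 and 0.729 reads per coding start with an exact copy, against 15.3 and 12.3 per start with 1 mismatch. Starts with no copy within 2 mismatches held fewer reads than those with 1 mismatch in Aldoa, at 3.89 and 3.69 per start, and in Ldha, at 1.69 and 1.34 against 20.3 and 17.1. In Pkm they held more, at 19.9 and 20.4, but all 132 of these starts lie in 1 exon, M1. Over all 9 genes, 226 (6.73%) of the 3358 coding exon starts with an exact copy had a read in BxC, and 219 (6.52%) in CxB.

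Junctions differed in the sum over the genes, though not in each of them. Of the 821 junction starts with an exact copy, 479 (58.3%) had reads in BxC and 448 (54.6%) in CxB, with 16414 and 12488 reads in all, against 2640 and 2128 reads at the more numerous coding exon starts, 1491 and 1237 of them in Pgam1. Ldhb went the other way, with 0.0593 and 0.0508 reads per junction start with an exact copy and 0.592 and 0.411 per coding exon start. The cause of this difference was not tested. In Pgam1, all junction and coding starts have exact copies. Its 3 junctions held 10703 of its 12713 reads in BxC (84.2%, 83.5 to 84.8) and 8051 of 9750 in CxB (82.6%, 81.8 to 83.3). In Hk1, which has no exact copy of a coding exon start, spliced reads made up 5.94% (5.69 to 6.20) and 6.13% (5.85 to 6.42). The first Pgam1 junction, between 41986676 and 41990095 on the plus strand of chromosome 19, held 9866 reads in BxC and 7457 in CxB. The second held 649 and 489, and the third 188 and 105. The window of the first junction is shown because it carried most of the gene's reads, with capitals for the 18 bases of the second exon.
Pgam1 first junction: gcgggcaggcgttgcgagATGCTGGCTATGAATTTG
It occurs unbroken on the minus strand at chr3:11015007-11015042, in Gm8910, which the annotation lists as protein-coding, and at chr7:28255398-28255433, in the pseudogene Pgam1-ps2. The RPKM of Pgam1 therefore rests on junction reads whose sequences also occur elsewhere in the genome.

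Counted in bases, 759 of the 765 coding bases of Pgam1 (99.2%) were covered by no 36-base sequence that lacks an exact copy, whether inside an exon or across a junction. The number was 751 of 1400 in Eno1 (53.6%), 536 of 1763 in Pkm (30.4%), 252 of 1005 in Ldhb (25.1%), 168 of 1177 in Ldha (14.3%) and 99 of 1271 in Aldoa (7.79%). It was 0 in Hk1, Hk2 and Eno2. In each of these 6 genes but Ldha, most coding bases without any read belonged to this set. In Eno1, 558 coding bases had no read in BxC and 523 of them were of this kind, and in CxB 522 of 559 were. In Pkm the same held for 304 of 304 and 303 of 307, and in Ldhb for 149 of 149 and 182 of 182. In Ldha only 90 of 184 and 90 of 187 bases without reads were of this kind. Of the 3 genes without exact copies, Eno2 had no coding base without a read in either library, whereas Hk1 and Hk2 had the bases without reads given above, none of them of this kind.

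Read over coding starts without an exact copy only, a scale added after seeing the data, the enolases were close. On this scale, which divides the reads at such starts by their number and by the library total in the units of RPKM, Eno1 stood at 28.6 (26.3 to 31.1) in BxC and 23.2 (21.0 to 25.6) in CxB, and Eno2 at 26.5 (25.5 to 27.4) and 25.3 (24.3 to 26.3). The Eno2 share was 48.0% (45.8 to 50.3) and 52.1% (49.5 to 54.8), with opposite order in the libraries. Over the starts of all exons without an exact copy, untranslated parts included, the share was instead 84.2% and 85.5%. Across annotated junctions Eno1 held more reads than Eno2, 2315 in BxC and 2088 in CxB over 15 junctions. Eno2 held 1113 and 839 over 18 junctions. Of the 405 junction starts of Eno1, 250 have an exact copy, against 0 of 486 in Eno2. The Eno1 value rests on 154 of its 980 coding starts. Of these, 94 have a copy with 1 mismatch and held 5.96 and 4.10 reads per start, while the 56 starts with no copy held 0 and 0.0179.

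The other pairs kept their order over coding starts without an exact copy. Hk1 stood at 53.0 (52.1 to 53.8) and 51.7 (50.8 to 52.6) and Hk2 at 0.953 (0.841 to 1.08) and 0.944 (0.823 to 1.08), which puts the Hk1 share at 98.2% (98.0 to 98.4) in each library. Ldha stood at 132 (129 to 135) and 133 (130 to 136) and Ldhb at 84.4 (81.9 to 87.0) and 78.6 (76.0 to 81.3), for an Ldhb share of 39.0% (38.1 to 39.9) and 37.1% (36.2 to 38.1). For the lactate dehydrogenases the order depended on the choice of reads, since the starts of all exons without an exact copy gave Ldhb 51.7% and 50.8%, and sense reads alone 58.5% and 55.6%. Aldoa had the highest value at 173 (170 to 176) and 148 (145 to 151), and Pkm stood at 124 (121 to 126) and 126 (123 to 129), close to Ldha.

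The upstream junctions of the Pkm pair, which have no exact copy at any of their 27 starts each, held more reads of M1 than of M2. M1 had 384 reads in BxC and 312 in CxB, and M2 had 116 in each. The M1 share was 76.8% (72.8 to 80.4) in BxC and 72.9% (68.4 to 77.1) in CxB, and these intervals overlap. With each line of the files counted once, it was lower, at 61.4% (52.4 to 69.9) and 56.1% (46.5 to 65.4), and the interval of CxB then includes equal shares. With at least 8 aligned bases on each side it was 77.4% (72.8 to 81.7) and 74.8% (69.7 to 79.5). The M2 junction had a copy with 1 mismatch at 23 of its 27 starts, and the M1 junction had none within 2 mismatches at 26.

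The downstream junctions gave the opposite picture. M1 had 0 reads in both libraries, and M2 had 322 in BxC and 224 in CxB. With all of these counted as M2, the upper bound of the M1 share was 1.14% and 1.63%. The bases after base 157 are the same in both exons, however, so a read that begins there fits either junction. Depth over M2 was 149 (BxC) and 118 (CxB) at base 157, and 339 and 236 at base 167. Reads that fit both junctions were not separated, so the bound does not hold for them. All 27 starts of the M2 junction have an exact copy, whereas 6 of the 27 starts of the M1 junction do and 14 have no copy within 2 mismatches. A count of 0 allows up to 3 reads, far below the 384 and 312 at the other end of the same exon. By the stated methods, junctions that skip up to 2 exons of a gene model were among the alignment targets, a description that takes in the downstream M1 junction. Whether it was in the set behind the deposited reads was not tested. With the reads of the upstream and downstream junction of each exon pooled, the measure set for the comparison, the M1 share was 46.7% (43.3 to 50.2) and 47.9% (44.0 to 51.8), although the ends differ as described. This pooled share also counts the downstream reads that fit both junctions as M2. Reads joining the exon before the pair directly to the exon after it numbered 1 in BxC and 0 in CxB, and none joined M1 to M2.

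Reads lying wholly inside the exons were also mostly M1. M1 held 2633 reads in BxC and 2695 in CxB at 132 starts, none with a copy within 2 mismatches, which is 19.9 and 20.4 reads per start. M2 held 398 and 393 at 132 starts, of which 65 have an exact copy and held 0 reads in both libraries. Over its 67 other starts M2 had 5.94 and 5.87 reads per start. The M1 share per start without an exact copy was 77.1% (75.1 to 78.9) in BxC and 77.7% (75.8 to 79.5) in CxB, against 86.9% (85.6 to 88.1) and 87.3% (86.0 to 88.4) over all starts.

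Within the exons the reads were uneven. The 5 deepest starts of M1 held 41.9% of its reads in BxC and 45.0% in CxB, with the deepest, at base 113 of the exon, holding 342 and 406. The 5 deepest starts of M2 without an exact copy held 51.3% and 42.2%. By the median, M1 had 5.5 and 5.0 reads per start and M2 2.0 and 2.0, for a share of 73.3% and 71.4%. Left out on both sides, the 5 deepest starts changed the share to 79.4% and 76.1%. M2 was deeper where its copies were less alike, at 13.0 and 12.8 reads per start over the 16 starts with 2 mismatches to the closest copy and 3.73 and 3.71 over the 51 starts with 1.

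**Figure D3:**
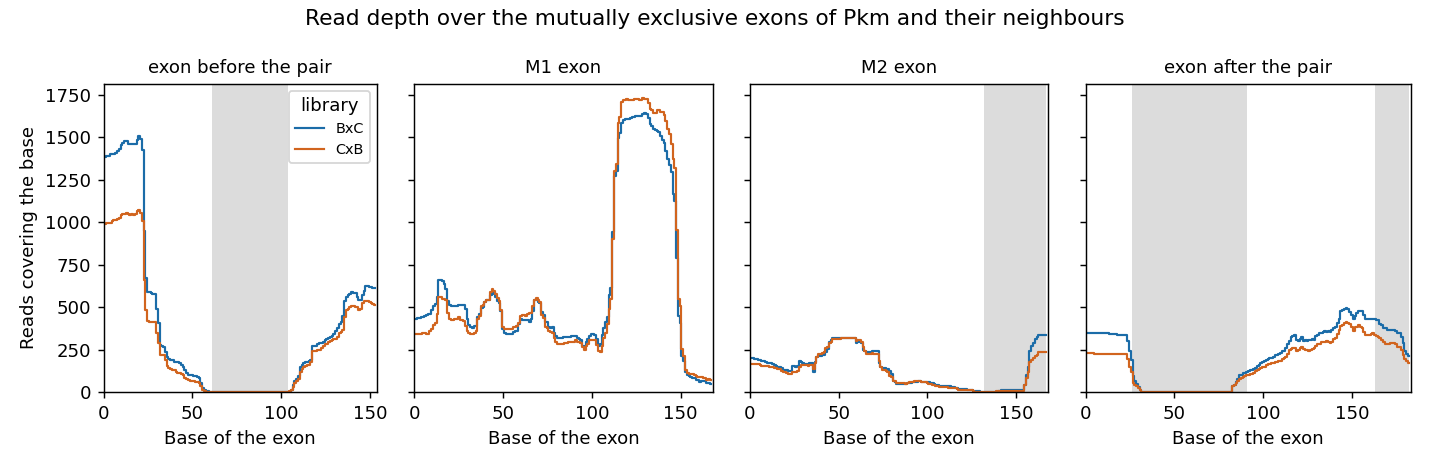
Reads covering each base (vertical axis) along the exon before the pair, M1, M2 and the exon after the pair (horizontal axis, bases from the start of the exon) in BxC and CxB. Grey marks bases covered only by 36-base sequences with an exact copy elsewhere, and a block of starts near base 113 of M1 stands above the rest in both libraries.

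**Figure D4:**
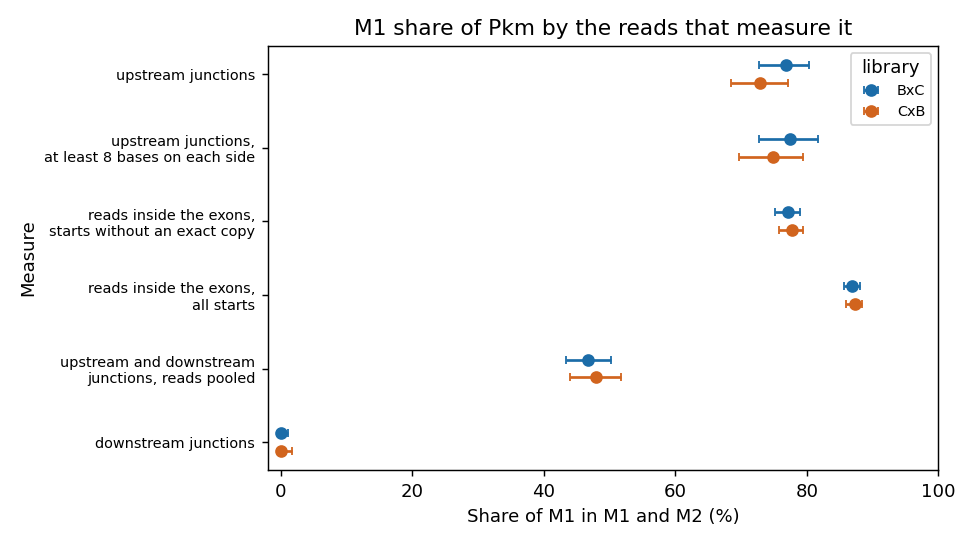
Share of M1 in the sum of M1 and M2 (percent, with exact 95% counting intervals) by 6 measures in BxC and CxB. The upstream junctions and the exon reads lie between 72.9% and 87.3%, the downstream junctions at 0%, and the pooled reads of both junctions at 46.7% and 47.9%. Downstream reads that fit both junctions are counted as M2.

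Other annotated junctions of Pkm also varied. Of 12, 10 had at least 10 reads in each library, and 1, downstream M1, had none. The others ranged from 3 reads in each library at the junction between 59516906 and 59518274, where all 27 starts have an exact copy, to 1300 in BxC and 906 in CxB at that between 59519532 and 59519728, where 24 of 27 starts have an exact copy.

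Hk1, on the minus strand of chromosome 10, had reads at only 1 of 5 alternative junctions near its 5′ end. The gene is known for alternative 5′ exons, some of them used in testis. The exon whose last genomic base is 61778296 was joined to the upstream exon that begins at 61802761 by 55 reads in BxC and 40 in CxB. Its 4 other annotated partners, among them the exon at 61815806 that 13 of the 21 transcripts use, had 0 reads in both libraries. Of the 36 annotated Hk1 junctions, 17 had at least 10 reads in each library and 17 had none in either. Hk2, at its low level, had 37 and 28 reads over 20 annotated junctions, and no junction reached 10 in each.

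Aldoa, on the minus strand of chromosome 7, had reads at 3 of 5 alternative junctions near its 5′ end. The exon ending at 133941290 was joined to the one starting at 133942559 by 583 reads in BxC and 517 in CxB. The partner at 133943802 had 57 and 35 reads, and that at 133941488 had 27 and 8. The partners at 133941710 and 133943516 had 0 in both. Over the 9 genes, no unannotated junction had 10 reads in each library.

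Between the libraries the 9 genes differed little. None was past a log2 ratio of RPM (reads scaled by the library total) of 0.32 in either direction, against 3.64% of the 15427 annotated genes with at least 100 reads in each library that were higher in CxB and 4.04% that were lower. Farthest from 0 was the log2 ratio of CxB over BxC of Aldoa, at -0.19 (-0.22 to -0.17), followed by Pgam1 at -0.15 (-0.19 to -0.11), Eno2 at -0.10 (-0.14 to -0.06) and Ldhb at -0.09 (-0.14 to -0.03). Pkm was at -0.07 (-0.10 to -0.04), Ldha at -0.06 (-0.09 to -0.02), Eno1 at -0.05 (-0.11 to 0.02), Hk1 at -0.02 (-0.04 to 0.00) and Hk2 at 0.04 (-0.14 to 0.21). The member median was -0.07, against -0.00 over all genes tested. In all, 8 of 9 lay below 0, as did 7774 of the 15427 genes tested, but 6 of the 9 did when each line of the files was counted once and 7 with sense reads only. In bulk tissue, fewer cells of a type and less RNA per cell cannot be told apart.

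**Figure D5:**
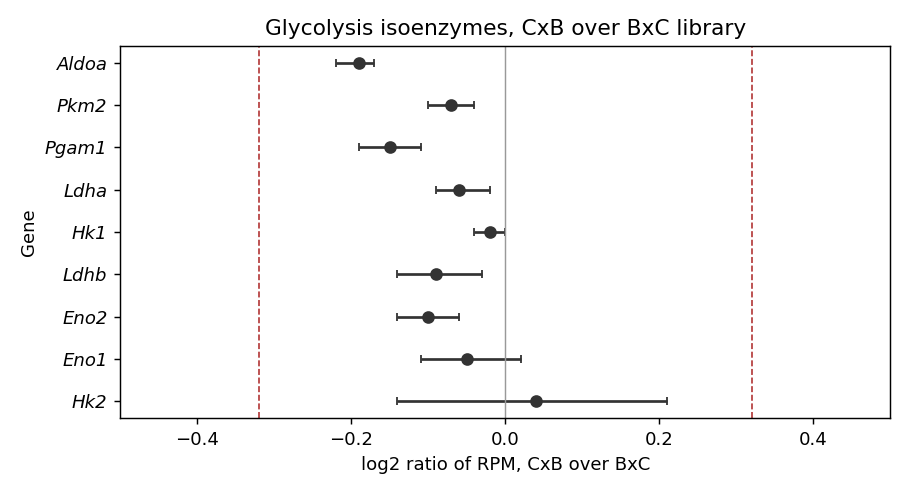
log2 ratio of RPM, CxB over BxC (horizontal axis), of each member with its exact 95% counting interval. Dashed lines mark a log2 ratio of 0.32 in either direction, and all 9 members lie between them, from -0.19 (Aldoa) to 0.04 (Hk2).

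The rest of the pathway gave the members their setting. Of 42 genes in 15 lists from glucose uptake to pyruvate oxidation, the 9 members included, 37 had at least 100 reads in each library, with 1 past 0.32 (log2) higher in CxB and 3 lower, beside 3.64% and 4.04% of all genes tested, and a median log2 ratio of -0.06. Those lower were the glucose transporter Slc2a1, with 22206 and 15003 reads and a log2 ratio of -0.33 (-0.36 to -0.30), Pgk1, with 4149 and 2703 reads and -0.39 (-0.46 to -0.32), and Pfkfb1, with 408 and 262 reads and -0.41 (-0.64 to -0.18). The muscle mutase Pgam2 was higher, with 246 and 273 reads and 0.38 (0.13 to 0.64). With each line of the files counted once, each of these differences was smaller. Slc2a1 had 2614 and 2114 lines, Pgk1 814 and 560, Pfkfb1 169 and 124, and Pgam2 122 and 124. The libraries held 36575945 (BxC) and 31155725 (CxB) lines. All 3 red blood cell markers lay lower in CxB (summed RPKM 278 and 227, Alas2 at -0.51). The 6 skeletal muscle markers, of which Pgam2 is 1, had a summed RPKM of 8.3 and 9.0. Of the 5 with at least 100 reads in each library, 3 were past 0.32 higher in CxB and 0 lower, with a median of 0.38. Those higher were Pgam2, Ckm at 0.62 and Tnnt3 at 0.48. Below 0 but not past -0.32 were Acta1 at -0.30 (-0.51 to -0.09), Eno3 at -0.18 (-0.41 to 0.05) and Myh3. Myh3, at -0.29 (-0.68 to 0.10), had fewer than 100 reads in CxB. The part of either cell type in these ratios was not tested. Pgk1, Pfkfb1 and Alas2 lie on chromosome X, and the sex of the BxC embryo is not known. For these genes, sex and the strain of X cannot be told apart from other differences between the libraries.

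Other isoenzymes of the same steps were mostly at lower levels. Among aldolases, the brain form Aldoc had an RPKM of 25.8 in BxC and 24.8 in CxB. Over coding starts without an exact copy, Aldoc stood at 41.9 and 41.4, below Aldoa at 173 and 148. Among hexokinases the lowest was Hkdc1, at 0.0725 and 0.0764. The muscle enolase Eno3 had 1.7 and 1.5 and the testis lactate dehydrogenase Ldhc 0.157 and 0.0577. Pklr, the pyruvate kinase of liver and red cells, had 1.46 and 1.21 over all exons, but 0.224 and 0.232 over its coding exons, which held 50 of its 610 reads in BxC and 44 of 431 in CxB. Pgk2, the testis phosphoglycerate kinase, had 0 reads in both libraries, which allows up to 3. Among glucose transporters Slc2a1 had 60.4 and 47.9 and Slc2a3, the transporter of neurons, 5.23 and 5.52. The phosphofructokinases ranged from Pfkl at 24.2 and 23.2 to Pfkm at 47.8 and 46.7. Over coding exons only, Pfkp was instead the highest, at 72.1 and 70.4, against 53.8 and 52.2 for Pfkm. The enzymes that make the activator of phosphofructokinase ranged from Pfkfb1 at 0.788 and 0.594 to Pfkfb3 at 16.1 and 15.3. Gpi1 had 30.7 and 29.6 and Tpi1 33.3 and 29.0, near the RPKM of Hk1 and the lactate dehydrogenases. Over coding starts without an exact copy these genes lay farther apart. Gpi1 stood at 106 and 103 and Tpi1 at 69.2 and 59.2, against 53.0 and 51.7 for Hk1. Ldha stood at 132 and 133 and Ldhb at 84.4 and 78.6. Among pyruvate dehydrogenase and its kinases Pdhb was highest, at 20.6 and 23.3, and Pdk4 lowest, at 0.499 and 0.517. The monocarboxylate transporters, which carry lactate, stood between Slc16a3 at 1.11 and 0.973 and Slc16a7 at 4.22 in BxC, or Slc16a1 at 4.51 in CxB.

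Exact copies were also found in other genes of the pathway. Of its 42 genes, 26 had no coding start with an exact copy, 12 had more than 10% and 3 had only such starts, namely Pgam1, Gapdh and Pgk1. Gapdh, the glyceraldehyde-3-phosphate dehydrogenase often used as a reference gene, had an RPKM of 16.1 and 16.8. It held 0 reads lying wholly inside a coding exon, but 3300 in BxC and 2950 in CxB across annotated junctions. Pgk1 likewise held 0 reads wholly inside a coding exon, with 3296 and 2230 across annotated junctions.

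Of the 5 factors known to bind Pkm RNA near the exon pair, none was past a log2 ratio of 0.32. Of all genes tested, 3.64% were past it higher in CxB and 4.04% lower. Hnrnpa2b1 had the highest RPKM at 221 in BxC and 213 in CxB. Ptbp1, the tract-binding protein of non-neuronal cells and progenitors, had the lowest at 8.57 and 8.18, and Ptbp2, its neuronal relative, stood at 27.0 and 29.8. Coding starts with an exact copy made up 97.2% in Srsf3, 87.7% in Hnrnpa1, 20.6% in Ptbp1, 17.9% in Hnrnpa2b1 and 0 in Ptbp2. This limits the comparison of their RPKM. Among the tissue markers, the 6 of neurons had a summed RPKM of 1499 and 1382, the 6 of progenitors 307 and 318, the 3 of red blood cells 278 and 227, the 2 of choroid plexus 253 and 281 and the 3 of astrocytes 15.7 and 16.6. The lists differ in length, so these sums give no order of the cell types. Of the neuronal sum, Tubb3 alone held 974 and 840, and the median log2 ratio of the 6 neuronal markers was 0.03.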

How the data were processed

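Whole-brain polyA+ RNA of 1 BxC and 1 CxB embryo (E17.5) was sequenced to 36 bases, single-end. By their methods, the authors aligned reads with Novoalign to gene models (merged isoforms), splice-junction sequences and mm9, and retained unique alignments. The submitters' processing notes name Novoalign and mm9. The deposited alignments give a read count on each line, and no normalization had been applied to these counts. That the fourth column is the number of identical reads was inferred from its values. A placement can have several lines, and over the members 30057 (BxC) and 24915 (CxB) lines made 20243 and 17677 placements. The library protocol is described as strand-specific, yet 54.3% and 54.9% of spliced reads at annotated junctions lay opposite to the gene, so either strand was counted, and sense reads, those opposite to the gene as that protocol gives them, were an alternative. 0 columns could not be assigned, and the authors' gene model and imprinting tables were not used here.

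Reads were summed where a block overlapped exons of GENCODE vM1 (same build). RPM divides by the library total, and a count of 0 allows 3 reads, or 0.0233 (BxC) and 0.0273 (CxB) RPM. Copies were searched over 22 chromosome sequences of NCBIM37, and a locus of copies holds at least 20 sequences. Shares carry Clopper-Pearson intervals and ratios conditional binomial ones, at 95%, computed with Python 3.11.15 and scipy 1.17.1. The ratio, share and interval calculations were tested on simulated data. The members and gene lists were chosen with earlier results of these data known. Named are all members, pathway genes at the highest and lowest level of a list or past a log2 ratio of 0.32 between the libraries, and junctions annotated for a member. Other genes and loci named, such as Gapdh and the copies, were chosen after their values were seen. Alternatives were each line counted once, sense reads, coding exons, unique starts, other junction sets, other scalings and read minimums. The values of 1 gene of the lists are not reported here.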

Additional observations from a re-analysis of the deposited data

How the results depend on the processing

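Of the alternatives, those marked here as added, which count coding starts without an exact copy or exon reads at such starts, were chosen after seeing the data. The Hk1 share, 97.6% in BxC and 97.5% in CxB, was 93.3% and 93.0% with each line counted once, 98.1% in each over coding exons, and 98.2% in each over coding starts without an exact copy (added). The Eno2 share, 77.1% and 76.4%, was 74.3% and 73.4% with each line counted once, 81.8% and 80.9% with sense reads, 66.6% and 64.2% over coding exons, 84.2% and 85.5% over all exonic starts without an exact copy, and 48.0% and 52.1% over such coding starts (added). The Ldhb share, 46.4% and 45.8%, was 48.7% and 49.7%, 58.5% and 55.6%, 38.5% and 37.3%, 51.7% and 50.8%, and 39.0% and 37.1% in the same order. The Pkm M1 share over both junctions, 46.7% and 47.9%, was 37.1% and 40.3% with each line counted once, 76.8% and 72.9% upstream, 0% and 0% downstream, 86.9% and 87.3% by exon reads, and, both added, 77.1% and 77.7% at starts without an exact copy and 73.3% and 71.4% by their median. Downstream reads that fit the junctions of both exons count as M2 in these shares. Genes past a log2 ratio of 0.32 were 1186 of 15427 tested (7.69%), and 348 of 14046 (2.48%) with each line counted once. They were 3717 of 19839 (18.7%) with a minimum of 10 reads and 7311 of 24355 (30.0%) with a minimum of 1. The cause of these shifts was not tested.

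In each of these, Hk1 was above Hk2. In no setting was a member past 0.32 between the libraries, over 45 log2 ratios from -0.20 to 0.11. Leaving out chromosomes X and M or scaling by the median ratio changed no member's direction. No paired analysis was possible because each cross has 1 library, and for the same reason no library could be left out.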

Other observations

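The copies of the members are themselves sites in these libraries. The Pgam1 copy Gm8910 (chr3:11014399-11015163), in which 598 sequences of Pgam1 occur exactly, held 1034 reads in BxC and 860 in CxB, while Pgam1-ps2 (chr7:28254790-28255554), which holds all 706 sequences exactly, had 0 in both. The Eno1 copy Gm13699 (chr2:80677258-80678602), with 1076 exact sequences, also had 0 in both. The Ldhb copy Gm5514 (chr19:22011833-22012874) held 262 and 215 reads.

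Of 16 loci with Pkm copies, the most reads lay at chr9:97110214-97111123, where vM1 annotates no gene and no Pkm sequence occurs exactly. It held 2562 reads in BxC and 1840 in CxB, of which 1114 and 826 began at a sequence within 2 mismatches of a pathway or member gene. An unannotated locus at chr12:31703044-31704689, with 304 exact Pkm sequences, held 579 and 467 reads, of which 576 and 462 began at such a sequence. The lincRNA 1700030G06Rik, where 789 Pkm sequences occur exactly (chr5:22230393-22232007), held 348 and 372 reads, and 18 and 17 of them began at a sequence within 2 mismatches. Over 13 Aldoa and 30 Ldha loci the sums were 134 and 122 reads, and 213 and 164.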
